A study of Mus musculus with 9 samples.

Results

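Mitochondrial ribosomal protein genes encode the protein subunits of the ribosome inside mitochondria, and their mRNAs were followed here in mouse liver. They were chosen by name alone: gene symbols made of Mrpl or Mrps, a number and at most 1 further letter. The rule found 78 of the 21870 genes in the mRNA table, and all 78 passed the filter on low values, which kept 11557 genes. Of these, 51 encode proteins of the large subunit, namely the Mrpl genes with Mrps30 and Mrps18a, which current nomenclature places there. The small subunit accounts for 26. The remaining gene, Mrps36, carries the old name but encodes a protein now known as a subunit of the 2-oxoglutarate dehydrogenase complex of the citric acid cycle.

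Livers came from wild-type C57 BL6 mice aged 8 weeks and weighing 20 g on average. The control group received saline. Mice of the APAP group were injected into the peritoneum with 500 mg/kg of APAP (acetaminophen, a painkiller that injures hepatocytes at high dose). Those of the dmPGE2+APAP group were given in addition 300 μg/kg of dmPGE2, a long-lived relative of prostaglandin E2, also into the peritoneum and 1 h ahead of APAP. Livers were collected at 6 h, with 3 libraries in each group. No group received dmPGE2 alone, so its effect without APAP is not analysed here.

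The mitochondrial ribosome translates the few proteins encoded by mitochondrial DNA, all of them subunits of the respiratory chain and ATP synthase. Its ribosomal RNAs come from the mitochondrial genome, while every one of its proteins is encoded in the nucleus, made in the cytosol and imported. Some of its proteins descend from the bacterial ribosome and others are particular to mitochondria. It works attached to the inner membrane, where its products are inserted. The liver is rich in mitochondria, and the reactive metabolite of APAP binds mitochondrial proteins in hepatocytes.

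Values are FPKM, fragments counted per length of transcript and per size of library, which can be compared between genes because they are per length. The depth is unknown. FPKM summed over the mRNA table to between 371958 and 393938 per library. Summed FPKM of 7 hepatocyte markers, such as albumin, ran from 35152 to 37918 in controls, 40383 to 47305 with APAP and 41775 to 46168 with dmPGE2+APAP, the highest sum of the 9 marker lists in every library. None of the 7 was called in APAP against control. Markers of other cells did move. The 8 neutrophil markers summed to 2.42 to 6.77 FPKM in controls, 9.83 to 41.0 with APAP and 5.29 to 11.3 with dmPGE2+APAP, and 4 of the 5 that could be tested rose with APAP (Retnlg, S100a8, Csf3r and Clec4d), while Mpo and Ly6g stayed below 0.1 FPKM in every library. The 7 Kupffer cell markers summed to 85.5 to 98.2, 52.2 to 88.6 and 89.9 to 94.9 FPKM in the same order, with 1 of 7 called (Cd68, higher). The 7 stellate cell markers summed to 89.1 to 132, 129 to 145 and 131 to 149, with 2 called higher (Dcn and Hgf), and 4 of 6 erythroid and platelet markers were called higher. Among endothelial markers Lyve1 was called higher and Kdr lower, and among cholangiocyte markers Sox9 higher. The 1 monocyte marker tested was not called, and no lymphocyte marker passed the filter. The part of these shifts in the results below was not tested. Fewer cells of a type and less RNA per cell cannot be told apart in bulk liver.

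The 78 mRNAs were present at modest levels that spanned 32.2-fold. Mrpl12, a protein of the stalk that recruits translation factors, which also binds the mitochondrial RNA polymerase, was the most abundant at a mean of 40.4 FPKM over the 9 libraries. Mrpl30 followed at 39.1, Mrpl34 at 27.7, Mrpl14 at 23.7 and Mrpl24 at 23.4 FPKM, all of them large-subunit proteins with bacterial homologues. At the other end, Mrps25 stood at 1.26 FPKM, Mrpl53 at 1.84, Mrpl19 at 2.01, Mrpl32 at 2.59 and Mrps36 at 2.99. The large subunit's genes had a median of 8.76 FPKM (1.84 to 40.4) and the small subunit's 8.09 FPKM (1.26 to 18.6). Replicates spread little: the median coefficient of variation over the 78 genes was 8.75% in controls, 10.5% with APAP and 9.12% with dmPGE2+APAP. The widest spreads belonged to 3 genes, named after their values were seen. Mrpl48, a large-subunit protein, stood at 9.01 FPKM in APAP replicate 3 against 3.46 and 3.25 in the other APAP libraries, and Mrps21, a small-subunit protein, at 11.2 against 5.38 and 3.70. Mrps16 ran from 2.13 to 4.56 and 6.77 FPKM over the controls.

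In sum the 78 mRNAs took a smaller share of the liver's mRNA after APAP. Their summed FPKM was 845, 874 and 905 in the 3 controls, 762, 730 and 712 with APAP, and 739, 763 and 754 with dmPGE2+APAP. All 6 libraries from APAP-treated mice lay below all 3 controls. As a share of all FPKM in the mRNA table, that was 0.221% to 0.235% in controls, 0.192% to 0.201% with APAP and 0.190% to 0.195% with dmPGE2+APAP. Libraries also differed in overall scale, which touches all genes. They were therefore rescaled. For genes, this raises every log2 difference of APAP from control by 0.122 and of dmPGE2+APAP from control by 0.154. Differences of dmPGE2+APAP from APAP rise by 0.0318. Transcripts of the lncRNA table had other scale factors, described with them below. After rescaling the sums were 808, 836 and 817 in controls, 780, 769 and 704 with APAP, and 788, 774 and 795 with dmPGE2+APAP. The controls still lay above all 6 treated libraries, by a narrower margin, the treated groups overlapped each other, and APAP replicate 3 was the lowest. Relative to each gene's control mean, the median member stood at −0.12, −0.14 and −0.26 on the log2 scale in the 3 APAP libraries and at −0.12, −0.07 and −0.06 in the 3 dmPGE2+APAP libraries. All log2 differences and folds below are on the log2(rescaled FPKM + 0.1) scale, and so are counts of groups that do not overlap, while FPKM given library by library are as deposited.

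**Figure D1:**
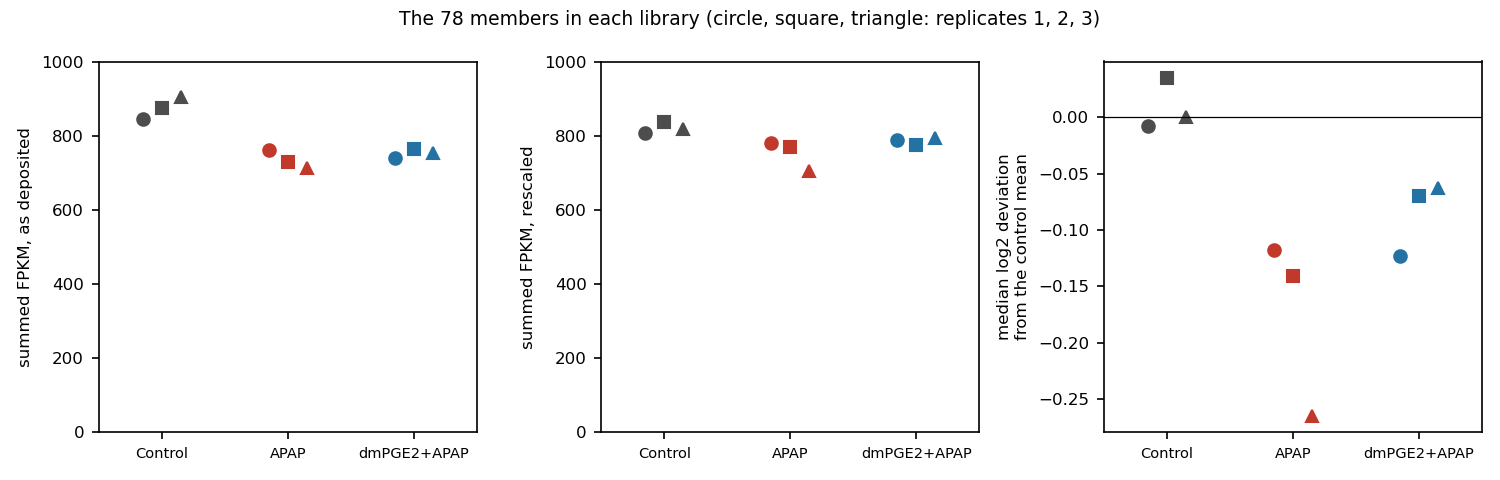
The 78 genes in each library, by group. The first panels give the summed FPKM as deposited and after rescaling, and the last gives the median log2 difference of the genes from their control means. All 6 libraries from APAP-treated mice lie below the controls in every panel, and APAP replicate 3 is the lowest at −0.26.

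Setting APAP beside saline asks which of these mRNAs differ in the injured liver at 6 h. Of the 78, 9 fell, namely Mrpl15, Mrpl45, Mrpl2, Mrpl35, Mrps10, Mrps22, Mrps18b, Mrps27 and Mrps36, and 2 rose, Mrpl38 and Mrps6 (limma, Benjamini-Hochberg adjusted p under 0.05 over all genes tested). That is 9 lower against a background of 9.4% of all genes tested and 2 higher against 11.3%, and 11 called in all against 20.7%. As shares, 11.5% of the members fell and 2.56% rose, so the share that fell lay near the background and the share that rose below it. The direction was less balanced than among all genes: 61 of the 78 had a fitted value below 0, against 52.4% of all genes, and the members' median was −0.14 against −0.02 for all genes. At an unadjusted p under 0.05, 20 were lower and 3 higher, with 17.5% and 17.9% of all genes on those sides and 35.5% in either direction. All APAP libraries lay below all controls for 26 members and above them for 4, against 19.5% and 19.3% of all genes. No test of the list as a whole was made. The 9 that fell stood at 0.615 to 0.799 of their control level. With a library left out, 5 members were called without control replicate 2 or APAP replicate 3 and 6 without control replicate 1.

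The scaling changed how many members were called. On the FPKM as deposited, with no rescaling, 24 members were called lower and 2 higher, their median was −0.26, and 2107 of all 11557 genes were called lower and 974 higher. The share of called genes that were higher was then 31.6%, against 54.6% with rescaling. Scaling by the median ratio instead gave 9 lower and 2 higher.

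**Figure D2:**
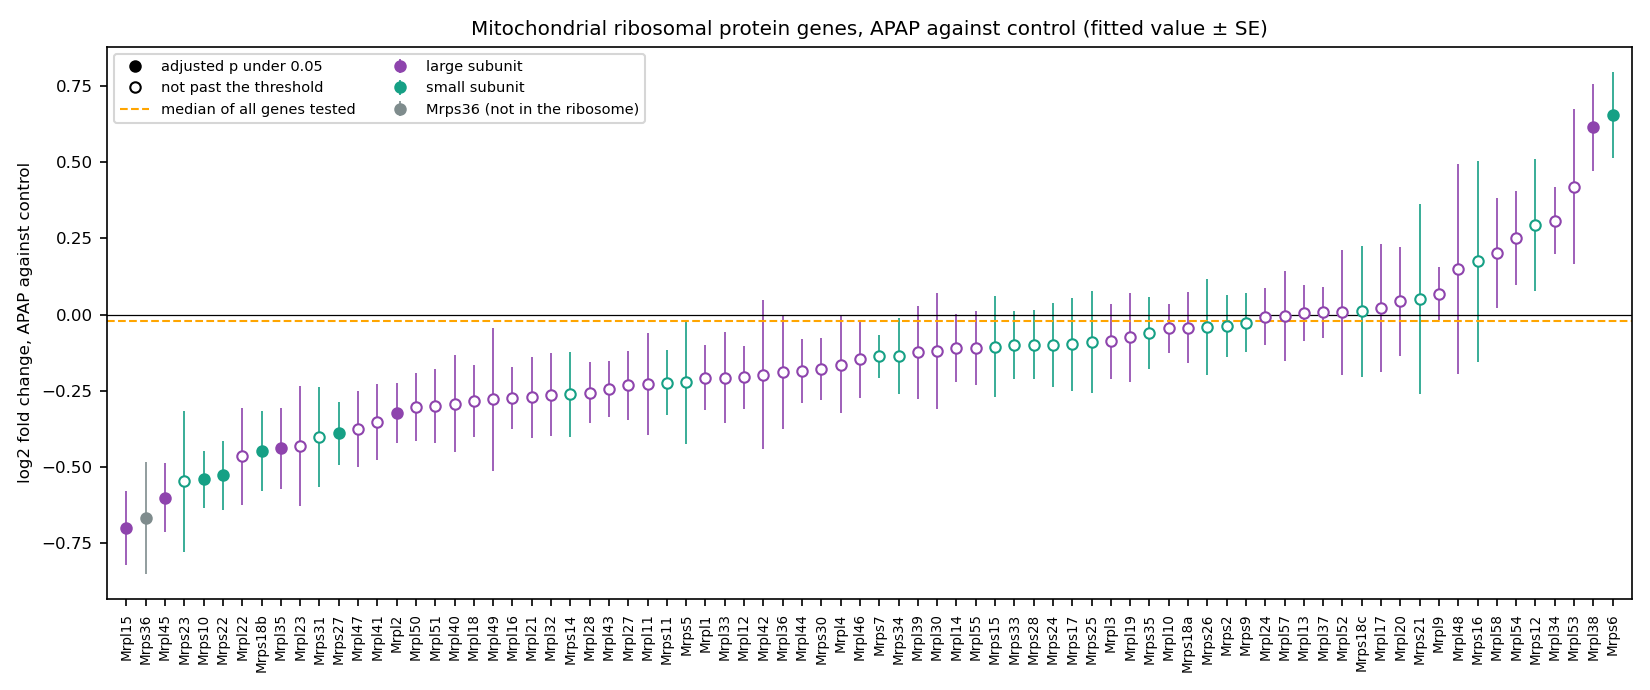
Fitted log2 fold change of each of the 78 genes in APAP against control, with its standard error, in order of size. Filled points passed the adjusted p and open points did not. The values run from −0.70 for Mrpl15 to 0.66 for Mrps6, 61 of 78 lie below 0, and the dashed line marks the median of all genes tested at −0.02.

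Mrpl45 showed the second-largest fall among the large-subunit genes, and Mrps22 and Mrps36 stand for the small subunit and for the gene outside the ribosome. Their start regions are printed because these are the called members in which the 200 bases before every RefSeq start of the gene hold no annotated exon. Sequences are from RefSeq, mouse build GRCm38.p6, 5′ to 3′ on the gene's own strand. Capitals mark GCGCA followed by any base and GCGC, the site of the factor NRF1 that drives many nuclear genes of mitochondria, or CCGGAAG, the core site of ETS factors such as GABP (NRF-2), on either strand.
Mrpl45, chr11:97315516-97315715, plus strand: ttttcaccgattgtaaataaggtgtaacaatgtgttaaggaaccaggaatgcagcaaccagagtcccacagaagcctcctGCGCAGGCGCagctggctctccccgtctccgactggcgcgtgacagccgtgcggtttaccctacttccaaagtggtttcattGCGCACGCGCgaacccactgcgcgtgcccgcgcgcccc
Mrps22, chr9:98601680-98601879, minus strand: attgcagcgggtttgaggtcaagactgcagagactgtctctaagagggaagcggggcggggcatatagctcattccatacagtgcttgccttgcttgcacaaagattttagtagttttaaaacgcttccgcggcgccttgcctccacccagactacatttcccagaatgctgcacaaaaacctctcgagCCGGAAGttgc
Mrps36, chr13:100744660-100744859, minus strand: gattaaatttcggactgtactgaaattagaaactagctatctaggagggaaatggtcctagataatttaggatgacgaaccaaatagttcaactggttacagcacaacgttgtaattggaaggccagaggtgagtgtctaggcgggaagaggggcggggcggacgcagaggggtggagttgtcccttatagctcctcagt
The window of Mrpl45 holds 2 NRF1 matches, ending 110 and 28 bases before the start. That of Mrps22 holds an ETS match ending 4 bases before the start, and that of Mrps36 holds no match to any of 4 motifs searched.

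Among large-subunit genes, Mrpl15 had the largest fall. It encodes a core protein with a bacterial homologue (ENSMUSG00000033845, GRCm38 chromosome 1, 4773206 to 4786007). Its FPKM was 7.25, 7.64 and 6.92 in controls, 3.84, 4.59 and 3.81 with APAP, and 4.72, 5.64 and 5.55 with dmPGE2+APAP. The APAP libraries were lowest, the dmPGE2+APAP libraries lay between them and the controls, and no group overlapped another. The fitted APAP level was 0.615 of control (log2 −0.70 ± 0.12 SE, limma adjusted p = 0.00455, n = 3 per group).

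Mrpl45, a mitochondria-specific protein at the exit of the peptide tunnel that tethers the ribosome to the inner membrane (ENSMUSG00000018882, chromosome 11, 97315716 to 97329920), followed the same order. Its FPKM was 6.18, 6.40 and 5.84 in controls, 3.47, 3.95 and 3.64 with APAP, and 4.30, 4.29 and 4.98 with dmPGE2+APAP. Again no group overlapped another. APAP stood at 0.659 of control (log2 −0.60 ± 0.11 SE, limma adjusted p = 0.0066).

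Mrpl2, which lines the peptidyl transferase centre where peptide bonds form (ENSMUSG00000002767, chromosome 17, 46646229 to 46650139), changed least of the called genes. Its FPKM was 14.3, 15.5 and 16.7 in controls, 10.1, 11.6 and 12.4 with APAP, and 12.4, 13 and 11.4 with dmPGE2+APAP. Every APAP library lay below every control (0.799 of control, log2 −0.32 ± 0.10 SE, limma adjusted p = 0.046). Mrpl35, a core protein with a bacterial homologue (ENSMUSG00000052962, chromosome 6, 71812997 to 71826969), had 4.38, 3.74 and 4.77 FPKM in controls, 2.82, 3.24 and 2.59 with APAP, and 3.15, 3.60 and 3.84 with dmPGE2+APAP. The APAP group lay below the controls without overlap, while dmPGE2+APAP overlapped both (0.737 of control, log2 −0.44 ± 0.13 SE, limma adjusted p = 0.0457). Both calls are marginal: that of Mrpl2 was lost without any 1 of the 6 libraries compared (adjusted p 0.0574 to 0.136), and that of Mrpl35 without each of them other than APAP replicate 2 (up to 0.135).

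In the small subunit, Mrps10 fell most among the called genes. It is a protein of the subunit's head with a bacterial homologue (ENSMUSG00000034729, chromosome 17, 47368887 to 47382233). Its FPKM was 17.3, 17.6 and 16.9 in controls, 11.8, 10.8 and 10.1 with APAP, and 12, 12.8 and 12.9 with dmPGE2+APAP. The controls were tight, every other library lay below them, and the dmPGE2+APAP libraries sat just above the APAP libraries. APAP stood at 0.687 of control (log2 −0.54 ± 0.09 SE, limma adjusted p = 0.00498).

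Mrps22, a mitochondria-specific protein in which inherited mutations cause a respiratory chain deficiency (ENSMUSG00000032459, chromosome 9, 98588730 to 98601660), had 12.2, 10.2 and 12.2 FPKM in controls, 7.50, 7.83 and 6.66 with APAP, and 7.51, 8.41 and 8.71 with dmPGE2+APAP. Both treated groups lay below the controls and overlapped each other. APAP stood at 0.693 of control (log2 −0.53 ± 0.11 SE, limma adjusted p = 0.0117).

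Mrps18b, a homologue of bacterial S18 (ENSMUSG00000024436, chromosome 17, 35910379 to 35916389), had 22.2, 18.8 and 19.5 FPKM in controls, 13.8, 14.6 and 12.3 with APAP, and 11.6, 15.6 and 14.1 with dmPGE2+APAP. The treated groups overlapped each other, and both lay below the controls (APAP 0.733 of control, log2 −0.45 ± 0.13 SE, limma adjusted p = 0.0409). Mrps27, a mitochondria-specific protein with pentatricopeptide repeats (ENSMUSG00000041632, chromosome 13, 99344786 to 99415562), had 10.6, 10.6 and 10.4 FPKM in controls, 6.95, 8.04 and 7.10 with APAP, and 7.56, 8.74 and 7.27 with dmPGE2+APAP. Its controls were nearly equal and both treated groups lay below them (APAP 0.763 of control, log2 −0.39 ± 0.10 SE, limma adjusted p = 0.0277). Each of these calls was lost without control replicate 1, control replicate 2, APAP replicate 1 or APAP replicate 3 (adjusted p up to 0.126 and 0.0876). Of the exonic bases of Mrps18b, 638 of 2089 overlap the opposite-strand gene Gm16279, and of Mrps27, 506 of 2093 overlap 6430562O15Rik, so both are uncertain if strand was not used in the quantification.

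Mrps36, the dehydrogenase subunit (ENSMUSG00000061474, chromosome 13, 100735955 to 100744659), fell from 3.46, 4.25 and 4.90 FPKM in controls to 2.90, 2.37 and 1.94 with APAP, and stood at 2.20, 2.85 and 2.03 with dmPGE2+APAP. The treated groups overlapped fully and both lay below the controls. The fitted values were 0.63 of control with APAP (log2 −0.67 ± 0.18 SE, limma adjusted p = 0.0324) and 0.634 with dmPGE2+APAP (log2 −0.66 ± 0.18 SE, limma adjusted p = 0.0404). The annotation names 3 pseudogenes of Mrps36, so its reads may be shared with them. The APAP call was lost without control replicate 2, control replicate 3, APAP replicate 2 or APAP replicate 3 (adjusted p up to 0.0978).

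The 2 members that rose belong to different subunits. Mrpl38, a mitochondria-specific protein of the central protuberance of the large subunit (ENSMUSG00000020775, chromosome 11, 116131817 to 116138868), had 12.7, 13.8 and 17.2 FPKM in controls, 18.7, 20.0 and 22.6 with APAP, and 20.4, 15.8 and 15.3 with dmPGE2+APAP. Every APAP library lay above every control. The dmPGE2+APAP libraries overlapped the APAP libraries. They overlapped the controls on deposited FPKM but lay above them after rescaling, without a call (log2 0.39, limma adjusted p = 0.101). APAP was 1.53-fold higher than control (log2 0.61 ± 0.14 SE, limma adjusted p = 0.0169), and the call was lost without control replicate 1, control replicate 2 or APAP replicate 3 (adjusted p up to 0.060). An isoform of Mrpl38 with a retained intron, listed in the lncRNA table, moved the same way without passing the test, at a mean of 11.4 FPKM in controls, 14.6 with APAP and 11.9 with dmPGE2+APAP.

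Mrps6, a small-subunit protein with a bacterial homologue (ENSMUSG00000039680, chromosome 16, 92058270 to 92112227), had 4.09, 4.02 and 5.59 FPKM in controls, 7.01, 6.75 and 6.06 with APAP, and 5.59, 5.32 and 4.45 with dmPGE2+APAP. All APAP libraries were above all others. APAP was 1.58-fold higher than control (log2 0.66 ± 0.14 SE, limma adjusted p = 0.0117). The value is uncertain in its source: 305 of its 1533 exonic bases are shared on the same strand with Slc5a3, which encodes an inositol transporter, and with Gm49711. Slc5a3 itself rose from 1.14, 1.10 and 1.80 FPKM in controls to 1.82, 1.91 and 2.88 with APAP (log2 0.79, limma adjusted p = 0.0274).

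**Figure D3:**
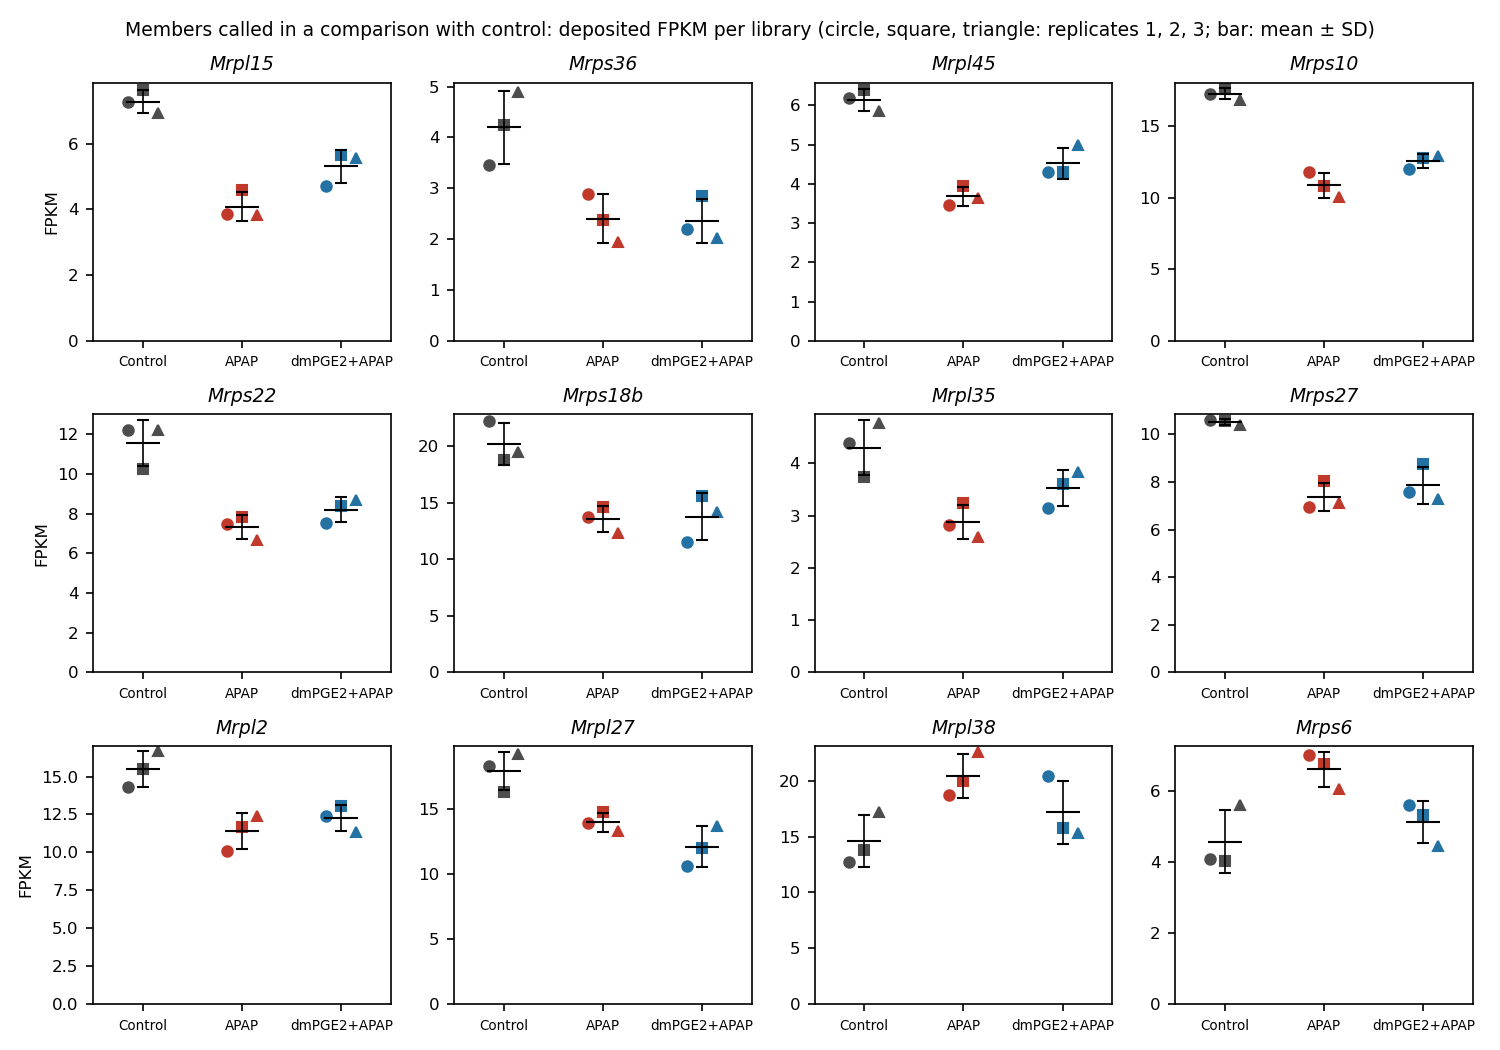
Deposited FPKM in each library of the 12 genes called in a comparison with control, with the mean and SD of each group and axes from 0. Mrpl38 and Mrps6 are the 2 whose mean is highest with APAP, and in the other 10 the control mean is highest. Mrpl15, Mrpl45 and Mrps10 show 3 groups that do not overlap.

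Both subunits held called genes. Over all genes tested, 11.3% were called higher and 9.4% lower. The large subunit had 1 higher (1.96%) and 4 lower (7.84%) of 51, with a median of −0.19. The small subunit had 1 higher (3.85%) and 4 lower (15.4%) of 26, with a median of −0.10. Of the 7 proteins around the tunnel exit, Mrpl45 alone was called and the list's median was −0.38. There Mrpl22 went from 7.36 ± 0.639 to 4.91 ± 0.895 FPKM (mean ± SD, n = 3, log2 −0.47, limma adjusted p = 0.0696), Mrpl47 from 3.84 ± 0.289 to 2.70 ± 0.297 (log2 −0.38, adjusted p = 0.0607) and Mrpl24 from 24.6 ± 0.449 to 22.5 ± 1.11 (log2 −0.01, adjusted p = 0.965). The members at the exit site thus differed widely among themselves. The 5 proteins of the stalk had no call and a median of −0.05. Mrpl12, the most abundant, stood at 44.9, 47.7 and 46.0 FPKM in controls, 41.4, 35.9 and 33.5 with APAP, and 35.9, 39.2 and 39.5 with dmPGE2+APAP. All APAP libraries lay below all controls on deposited FPKM but the same groups overlapped after rescaling, and the treated groups overlapped each other (log2 −0.21, limma adjusted p = 0.189). The 10 proteins of the central protuberance had Mrpl38 as their only call and a median of −0.13.

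By ancestry, the 46 members with a bacterial homologue had 5 lower (10.9%) and 1 higher (2.17%) with a median of −0.15. The 32 others had 4 lower (12.5%) and 1 higher (3.13%) with a median of −0.14. These 32 include Mrps36, which lies outside the ribosome and is 1 of the 4 lower, so the 2 shares do not rank the ribosomal proteins by ancestry. Over all genes the shares were 9.4% lower and 11.3% higher. The summed rescaled FPKM of the large subunit was 2.47 to 2.52 times that of the small subunit in controls, 2.57 to 2.61 with APAP and 2.48 to 2.69 with dmPGE2+APAP. The APAP libraries lay above the controls, while dmPGE2+APAP covered nearly the whole range.

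Several of the larger fitted differences were not called. Mrps23 had a mean of 10.1 FPKM in controls and 6.38 with APAP (log2 −0.55, limma adjusted p = 0.125), and Mrps31 11.9 and 8.36 (log2 −0.40, adjusted p = 0.116). Mrpl41 had 11.8, 11.5 and 11.6 FPKM in controls and 9.06, 8.53 and 7.56 with APAP (log2 −0.35, adjusted p = 0.0756). Mrpl23, given below, stood at log2 −0.43 (adjusted p = 0.154). On the other side, Mrpl53 had the largest uncalled difference, at a mean of 1.61 FPKM in controls and 1.99 with APAP (log2 0.42, adjusted p = 0.273). Mrpl34 had 28.3, 26.8 and 23.5 FPKM in controls and 31.3, 30.1 and 28.0 with APAP (log2 0.31, adjusted p = 0.0765). A p short of the threshold does not show that these levels were equal.

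The comparison of dmPGE2+APAP with APAP asks what the pretreatment changed in the injured liver. No member passed, and neither did any of the 11557 genes (limma, background 0%). Without adjustment, 1082 genes in all, 9.36%, had a p under 0.05, and so did 7 members, 6 higher and 1 lower, against 4.75% and 4.61% of all genes on those sides. Of the 78 members, 57 had a fitted value above 0 and 21 below (26.9%, against 44.8% of all genes). Their median was 0.08 against 0.03 for all genes. Other lists described below leaned the same way. Nuclear genes of oxidative phosphorylation had 68 of 79 above 0 and a median of 0.14, and translation factors 15 of 17 and 0.11. Assembly genes had 23 of 29 and 0.08, and cytosolic ribosomal protein genes 52 of 76 and 0.04. All dmPGE2+APAP libraries lay above all APAP libraries for 8 members and below them for 1, against 9.58% and 7.11% of all genes. The members' median fell to 0.02 without APAP replicate 3, the library in which they were lowest.

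The 6 higher members were Mrpl23, Mrpl41, Mrpl15, Mrpl45, Mrpl35 and Mrps10. Mrpl23, a protein of the tunnel exit, had 6.00, 7.07 and 8.68 FPKM in controls, 5.94, 5.39 and 3.57 with APAP, and 7.48, 7.20 and 7.62 with dmPGE2+APAP. The difference between the treated groups was 0.63 ± 0.20 SE on the log2 scale (unadjusted p = 0.0105, limma adjusted p = 0.396), and a pseudogene of Mrpl23 is annotated. Mrpl41 had 9.60, 13.4 and 11.5 FPKM with dmPGE2+APAP, all above the APAP libraries given above, a difference of 0.47 ± 0.12 SE (adjusted p = 0.324). For Mrpl15 the difference was 0.40 ± 0.12 SE (adjusted p = 0.387), for Mrpl45 0.32 ± 0.11 (adjusted p = 0.446), for Mrpl35 0.32 ± 0.13 (adjusted p = 0.52) and for Mrps10 0.24 ± 0.09 (adjusted p = 0.492). The 1 lower member was Mrps6, at −0.33 ± 0.14 SE (adjusted p = 0.52). None of these 7 differences holds after adjustment over all genes.

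The comparison shares its APAP libraries with that of APAP and control, so the values of the other members called there are given only side by side. Mrps22 stood at −0.53 in APAP against control and 0.19 in dmPGE2+APAP against APAP, Mrpl2 at −0.32 and 0.14, and Mrps27 at −0.39 and 0.12. Mrpl38 stood at 0.61 and −0.23 (limma adjusted p = 0.65 for the latter). Mrps36 stood at −0.67 and 0.01 and Mrps18b at −0.45 and 0.05, the 2 smallest differences between the treated groups among the 11. The value of Mrps36 turned to −0.02 without rescaling and −0.01 with median ratio scaling, and both turned negative without APAP replicate 3 (−0.15 and −0.04) or without dmPGE2+APAP replicate 2 (−0.11 and −0.03).

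Against control, 2 members were lower with dmPGE2+APAP, Mrps36, given above, and Mrpl27, and none was higher, against 7.03% and 9.15% of all genes (16.2% in either direction). Mrpl27 is a large-subunit protein whose bacterial homologue reaches toward the peptidyl transferase centre (ENSMUSG00000024414, chromosome 11, 94653767 to 94660089). It had 18.3, 16.3 and 19.2 FPKM in controls, 13.9, 14.7 and 13.3 with APAP, and 10.6, 12 and 13.7 with dmPGE2+APAP. Both treated groups lay below the controls and overlapped each other. The dmPGE2+APAP level was 0.75 of control (log2 −0.41 ± 0.11 SE, limma adjusted p = 0.0377) and the APAP level 0.851 (log2 −0.23, adjusted p = 0.176), and the difference between the treated groups was −0.18 (adjusted p = 0.643). The call was lost without any 1 of control replicates 1, 2 and 3 and dmPGE2+APAP replicates 1 and 2 (adjusted p up to 0.116), and that of Mrps36 without control replicate 2 or 3 or dmPGE2+APAP replicate 1 or 3 (up to 0.127).

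In this comparison 54 of 78 fitted values lay below 0, against 48.5% of all genes, with a median of −0.08 against 0.01. At an unadjusted p under 0.05, 12 members were lower and 3 higher, with 14.4% and 16.7% of all genes on those sides and 31.1% in either direction. The groups did not overlap for 17 members below control and 4 above, against 17.7% and 20.4% of all genes. Without rescaling 14 members were called lower and none higher, beside 1792 lower and 714 higher of all 11557 genes. Their median was then −0.23, and 28.5% of the genes called in the whole table were higher, against 56.5% with rescaling. Mrps12 had the largest positive difference, at 7.80, 7.09 and 7.33 FPKM in controls, 7.98, 7.28 and 10.1 with APAP, and 12.6, 11.2 and 6.55 with dmPGE2+APAP. Its replicates were spread wider than the groups were apart (log2 0.54 ± 0.22 SE, limma adjusted p = 0.125).

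Genes that act with the mitochondrial ribosome were read from lists beside it. Over all genes tested, 9.4% were called lower and 11.3% higher with APAP, and no list was tested as a whole. Of 29 genes for ribosome assembly and modification of its RNA, 7 fell (24.1%) and 2 rose (6.90%) with APAP. The list's median was −0.20. Tfb1m, which methylates the small subunit's RNA, had 4.87, 4.49 and 4.16 FPKM in controls and 2.48, 3.03 and 2.41 with APAP (log2 −0.64, limma adjusted p = 0.0367). Rpusd3, a pseudouridine synthase, had 7.29, 7.67 and 8.82 in controls and 4.47, 5.58 and 4.93 with APAP (log2 −0.54, adjusted p = 0.00985). In both the groups were apart. The 2 that rose were the RNA helicase Ddx28, from 5.73, 5.84 and 4.43 to 8.35, 8.27 and 7.10 FPKM (log2 0.69, adjusted p = 0.0102), and Mterf3, a regulator of mitochondrial transcription and ribosome assembly, from 7.09, 5.71 and 7.18 to 7.84, 10.6 and 8.36 (log2 0.53, adjusted p = 0.0281). Both were called higher with dmPGE2+APAP against control as well (log2 0.97 and 0.66, adjusted p = 0.0027 and 0.015), and 4 genes of the list were lower there. The shares were 6.90% higher and 13.8% lower, against 9.15% and 7.03% of all genes.

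Of 17 mitochondrial translation factors tested, 7 fell with APAP (41.2%, against 9.4% of all genes) and none rose, with a median of −0.30. Mtif3, an initiation factor, had 5.08, 9.74 and 5.52 FPKM in controls, 3.39, 2.72 and 2.49 with APAP, and 2.45, 2.26 and 2.23 with dmPGE2+APAP, so the controls were high and uneven and every treated library was lower (log2 −1.04, limma adjusted p = 0.0155). Mtrf1, a member of the release factor family, had 3.23, 3.18 and 3.04 in controls and 1.97, 1.63 and 1.52 with APAP (log2 −0.74, adjusted p = 0.00534). Taco1, which activates translation of cytochrome oxidase subunit I, had 12.2, 13.7 and 11.3 in controls and 7.71, 7.30 and 7.51 with APAP (log2 −0.59, adjusted p = 0.00468). Tsfm, the exchange factor of elongation factor Tu, had 6.59, 5.75 and 6.22 in controls and 4.17, 4.12 and 3.88 with APAP (log2 −0.48, adjusted p = 0.00903). In each the treated libraries lay below the controls. Mtif3, Mtrf1 and Taco1 were also lower with dmPGE2+APAP than in controls (adjusted p = 0.00743, 0.0418 and 0.0103).

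Of 15 genes for mitochondrial transcription and genome upkeep, 1 fell with APAP (6.67%, against 9.4% of all genes), and the median was −0.25. It was Ssbp1, which binds single-stranded mitochondrial DNA (7.89, 7.56 and 8.88 FPKM in controls, 5.12, 5.66 and 4.97 with APAP, log2 −0.50, limma adjusted p = 0.0101). Tfam, the packaging and transcription factor of mitochondrial DNA, had 11.3, 11.5 and 9.69 FPKM in controls and 7.96, 8.03 and 7.11 with APAP, short of the threshold (log2 −0.36, adjusted p = 0.056). The 5 ribosomal proteins named outside the Mrpl and Mrps series, among them Dap3 and Ptcd3, had no call, all fitted below 0, and a median of −0.23.

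The list of regulators of mitochondrial biogenesis and stress moved in both directions, with 6 of 18 higher and 2 lower with APAP. The shares were 33.3% higher and 11.1% lower, against 11.3% and 9.4% of all genes. The largest were the transcription factors Myc, from 0.949, 1.97 and 0.671 FPKM in controls to 7.15, 5.27 and 8.15 (log2 2.64, limma adjusted p = 0.00114), and Ddit3, from 1.30, 1.43 and 1.41 to 8.58, 7.10 and 7.56 (log2 2.51, adjusted p = 4.31e-05). Ppargc1a, the coactivator PGC-1α, went from 2.53, 3.79 and 1.15 to 5.48, 4.05 and 7.07 (log2 1.35, adjusted p = 0.0328), and Atf4 of the integrated stress response from 34.2, 34.2 and 37.3 to 74.1, 67.8 and 70.0 (log2 1.12, adjusted p = 5.94e-05). Of the factors whose sites were searched, Nrf1 rose from 4.18, 3.55 and 3.95 FPKM to 4.28, 4.6 and 5.42 (log2 0.40, adjusted p = 0.027), and Gabpa, the DNA-binding subunit of GABP, fell from 12.1, 11.6 and 12.9 to 8.13, 8.73 and 7.41 (log2 −0.47, adjusted p = 0.0122). Yy1 had 12.9, 12.1 and 15.4 FPKM in controls and 10.5, 11.8 and 12 with APAP and was not called (log2 −0.11, adjusted p = 0.445). Without rescaling, the assembly list had 10 of 29 called lower and 1 higher with APAP, and translation factors 10 of 17 lower. Transcription and genome upkeep had 2 of 15 lower, and regulators 4 of 18 higher and 3 lower. In that setting 2107 of all 11557 genes were called lower and 974 higher, so the shares of 9.4% and 11.3% do not apply.

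Of 11 mitochondrially encoded mRNAs tested, mt-Nd1 was called higher and mt-Nd2 lower with APAP. Each is 9.09% of the list, against 11.3% of all genes higher and 9.4% lower. The nuclear genome holds copies of mitochondrial DNA, so the values of all 11 are uncertain. The other 9 had no call, and mt-Co1, the most abundant, ran at 7064, 7564 and 10378.5 FPKM in controls and 8141, 7271 and 7419.6 with APAP. Of the 76 cytosolic ribosomal protein genes tested, 5 were called higher (6.58%) and 1 lower (1.32%), both below the shares of all genes. Their median of 0.10 turned to −0.02 without rescaling, where the calls were none higher and 2 lower. Of 79 nuclear genes of oxidative phosphorylation, none was called (limma) and the median was −0.01, while 1 was higher and 4 lower at an unadjusted p under 0.05. Without rescaling that list had 7 of 79 called lower and a median of −0.13. In that setting the share of all genes called lower, from the counts given above, was larger than in this list or the cytosolic one. With all lists on the same scale, the members' median of −0.14 lay below those of both comparison sets under each scaling.

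**Figure D4:**
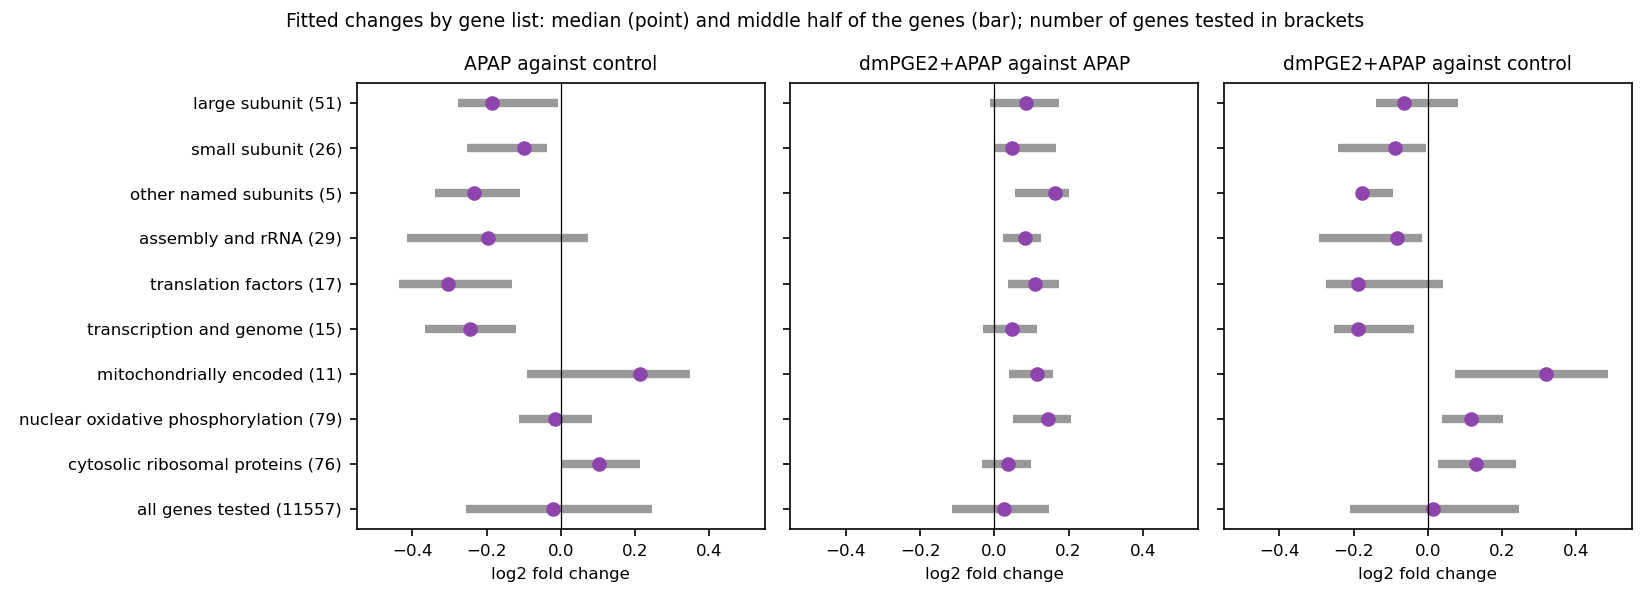
Median fitted log2 fold change of the gene lists shown (points) with the middle 50 percent of genes of each (bars), for the 3 comparisons. The number of genes tested is in brackets, and the list of regulators is not drawn. For APAP against control the large subunit sits at −0.19, the small subunit at −0.10, translation factors at −0.30 and cytosolic ribosomal proteins at 0.10. The comparisons share libraries, so the panels are not independent.

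Start regions were searched for 4 motifs in windows of 300 bases, from 250 before to 50 after the RefSeq start, on both strands. Of the 78 members, 69 matched the RefSeq promoter table (GRCm38.p6), with 75 windows. The ETS site CCGGAAG was in 26 of 69 members, 37.7%, against 13.4% of 16522 coding genes. The NRF1 site, GCGCA followed by any base and GCGC, was in 13, 18.8%, against 7.44%. The YY1 site AANATGGCG was in 11, 15.9%, against 3.83%, and the E-box CACGTG in 5, 7.25%, against 9.18%. The coding genes include genes that did not pass the filter on low values, while all members passed it, so the shares compare unlike sets. A gene counts once for each motif, and a window can hold more than 1 motif. Among the called members with a window, NRF1 sites were in Mrpl45, ETS sites in Mrps22, Mrps18b, Mrps27 and Mrpl27, YY1 sites in Mrps27, Mrpl27 and Mrpl35, and an E-box in Mrpl2. Mrps36, Mrps10 and Mrps6 held none of these letters. A match is a stretch of letters, not evidence of binding, and the called members that fell included windows with and without each motif. Mrpl15 and Mrpl38 were named only.

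The members are scattered over 17 chromosomes, with at most 11 on chromosome 11 and 8 on chromosome 17. Of the 78, 23 start head to head with another coding gene, 29.5%, against 12.3% of 11526 coding genes tested. A head-to-head partner was a coding gene on the opposite strand starting from 1000 bases upstream to 200 downstream. Among called members Mrps27 shares its start region with Ptcd2, a mitochondrial RNA-binding protein, which also fell (13.1, 12.3 and 10.4 FPKM in controls, 7.66, 7.91 and 7.14 with APAP, log2 −0.52, limma adjusted p = 0.0243). Mrps18b shares its start region with Ppp1r10, a phosphatase regulator, which rose while Mrps18b fell (15, 15 and 15.8 FPKM in controls, 21.2, 19.1 and 26.0 with APAP, log2 0.64, adjusted p = 0.0164). Mrpl2 faces Klc4, a kinesin light chain, at a mean of 13.5 FPKM in controls and 12.5 with APAP (log2 0.01, adjusted p = 0.974). Mrpl27 faces Eme1, which was below the filter. Partners thus moved with, against or without the member. Exonic bases were shared with another gene on the same strand by 8 members and with a gene on the opposite strand by 28.

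Transcripts without a coding sequence from the same loci gave a separate readout. The lncRNA table listed 157 isoforms of 66 member genes, 88 with a retained intron and 61 annotated as processed transcripts, and 109 from 59 genes could be tested. With APAP 2 of the 109 rose and none fell (limma, background 2.62% higher and 0.962% lower), while 13 had an unadjusted p under 0.05 against 18.4% of all transcripts. Mrpl33-202, a processed transcript of the large-subunit gene Mrpl33 (GRCm38 chromosome 5, 31614017 to 31622637), was listed at 0 in all 3 controls, at 1.26, 0.590 and 1.32 FPKM with APAP, and at 0.534, 1.72 and 0.766 with dmPGE2+APAP. All 6 libraries from APAP-treated mice listed it and no control did (limma adjusted p = 0.00437 for APAP and 0.0058 for dmPGE2+APAP against control). A listed 0 can be a failed estimate, so no fold is given, and the call for dmPGE2+APAP was lost at a pseudocount of 1 (adjusted p = 0.0537). The gene itself had 24.6, 20.2 and 27.9 FPKM in controls, 19.4, 21.6 and 16.6 with APAP, and 17.5, 20.2 and 22.0 with dmPGE2+APAP, overlapping throughout (log2 −0.21 for APAP, adjusted p = 0.352).

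Mrpl16-202, a retained-intron isoform of the large-subunit gene Mrpl16 (chromosome 19, 11770412 to 11774793), had 0.306, 0.0697 and 0.140 FPKM in controls, 0.791, 0.669 and 0.854 with APAP, and 0.481, 0.362 and 0.644 with dmPGE2+APAP. The 3 groups did not overlap, with APAP highest (log2 1.72 ± 0.36 SE, limma adjusted p = 0.0315 against control; log2 −0.49, adjusted p = 0.863 for dmPGE2+APAP against APAP). It no longer passed without control replicate 2, without control replicate 3 or without any 1 of the APAP libraries (adjusted p 0.070 to 0.0997). The gene lay the other way, at 13, 12.3 and 12.2 FPKM in controls, 10.4, 9 and 9.06 with APAP, and 9.57, 10.7 and 11.3 with dmPGE2+APAP, without passing the test (log2 −0.27, adjusted p = 0.0881). The isoform was a small part of the locus, at a mean of 0.771 FPKM with APAP beside 9.50 for the gene. For dmPGE2+APAP against APAP no isoform passed, as was true of all 22984 transcripts, and 8 of the 109 had an unadjusted p under 0.05, all higher, against 6.45% of all transcripts in either direction. Against control, Mrpl33-202 alone passed with dmPGE2+APAP (background 1.25% higher), and 15 had an unadjusted p under 0.05 against 16.1%.

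**Figure D5:**
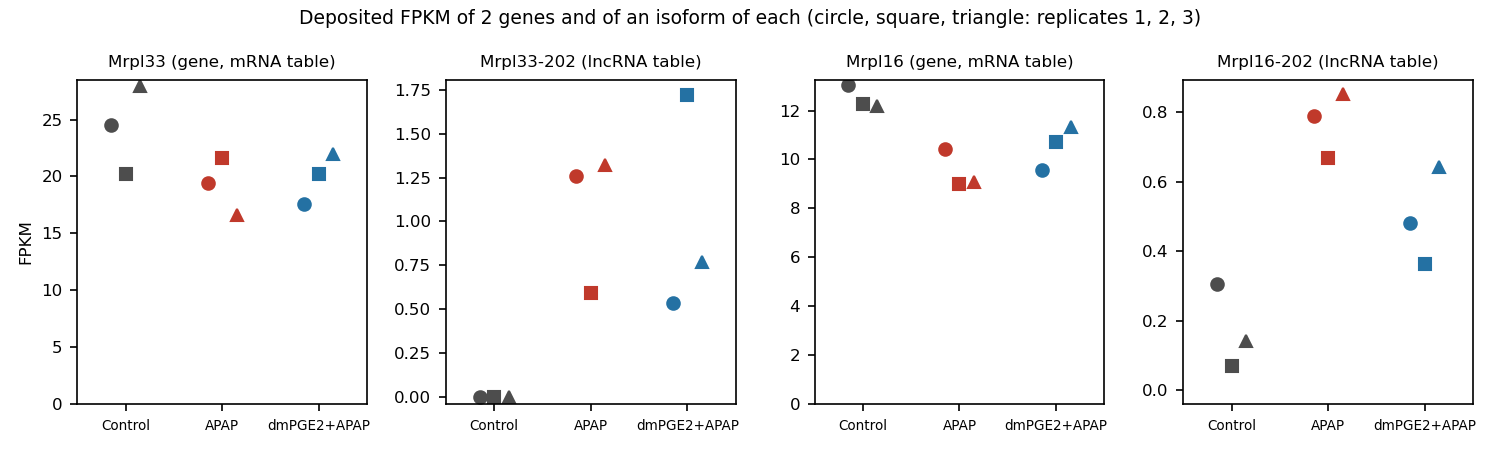
Deposited FPKM in each library of Mrpl33 and Mrpl16 and of the isoforms Mrpl33-202 and Mrpl16-202. Mrpl33-202 is at 0 in the 3 controls and between 0.534 and 1.72 in the 6 other libraries, and Mrpl16-202 is highest with APAP while its gene is highest in controls.

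Members differed in how closely they followed each other. Across the 9 libraries, the correlation of a member with the mean of the other members had a median of 0.49, was above 0.5 for 38 members and below 0 for 12, and ran from −0.78 for Mrpl38 to 0.94 for Mrpl12. The 9 points include the difference between groups, so this is a description with n = 9 libraries. Outside the members and lists, the genes with profiles most like the mean member, out of 11148 compared, were Cnep1r1 (r = 0.972), Msl3 (0.968), Prdx3 (0.965), Gspt1 (0.965) and Steap3 (0.963).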

How the data were processed

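RNA of 9 liver samples was sequenced after removal of ribosomal RNA. The authors deposited FPKM per gene (mRNA) and per transcript (lncRNA), per the file headers. The submitters' processing notes name HISAT2 and GRCm38 (mm10), while the quantifier, and whether it used strand, are not given in the sources used here. The control columns carry a prefix that the labels do not define and were taken as controls because the others name the treated groups. The tables deposited as read counts do not hold counts and were not used, so a log-scale test replaced a count test.

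Each library's FPKM were divided by its scale factor, and the log2 was taken after adding 0.1. The factor was the mean of its log ratios to a typical library, after dropping 30% at each end by ratio and 5% by abundance. Genes had factors from genes alone, and transcripts had factors from genes and transcripts together. Genes reaching 0.5 FPKM and transcripts reaching 0.1 FPKM, each in 3 or more libraries, entered limma 3.58.1 (R 4.3.3) with an abundance trend and 3 group means over all 9 libraries (6 residual degrees of freedom). Tests were two-sided, with Benjamini-Hochberg adjustment at 0.05 over all 11557 genes or 22984 transcripts. The script was tested on simulated data. An exact test of 3 against 3 libraries cannot go below p = 0.1. The labels do not say whether the libraries of a group come from separate mice, so p-values measure only the spread between these samples, which may be technical.

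Members past the threshold, the 5 highest and 5 lowest by level and, in each other list, up to 4 called genes with the largest changes were named, and any member could be named by its role. Nrf1, Gabpa, Yy1, Tfam and the neighbouring genes were added after their values were seen. The members and lists were chosen with earlier results of these data known. Alternatives were other scalings, pseudocounts and filters, a fit of 2 groups, a replicate block and leaving out each library.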

Additional observations from a re-analysis of the deposited data

How the results depend on the processing

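Mrpl15, Mrpl45, Mrps10, Mrps22 and Mrps6 kept their direction and call in APAP against control under all 14 alternatives. The count of 11 members was 26 with no rescaling, 6 in a fit of 2 groups and 5 to 11 with 1 library left out (5 without control replicate 2 or APAP replicate 3, 6 without control replicate 1), and the members' median of −0.142 was −0.263 with no rescaling and −0.204 to −0.118 with 1 library left out. For dmPGE2+APAP against control the 2 calls became 14 with no rescaling, 1 with no filter, 1 in a fit of 2 groups and 0 to 2 with 1 library left out (0 without control replicate 2 or 3, 1, Mrps36, without control replicate 1 or dmPGE2+APAP replicate 2, and 1 without dmPGE2+APAP replicate 1, where Mrps36 and Mrpl27 were both lost and Mrpl18 passed instead at −0.42, adjusted p = 0.0419), and the median of −0.0828 became −0.232 with no rescaling. With 1 library left out, some counts also held members not called above: Mrpl51, Mrpl22, Mrpl47 or Mrpl21 for APAP and Mrps12 for dmPGE2+APAP, both against control. For dmPGE2+APAP against APAP no member passed under any alternative, the median of 0.0790 ran from 0.0228 to 0.113 with 1 library left out, and all genes gave 2 calls in a fit of 2 groups and 0 to 42 with 1 library left out (42 without dmPGE2+APAP replicate 1). Over all genes, APAP against control gave 1558 to 2305 calls with 1 library left out (1558 without APAP replicate 3) and dmPGE2+APAP against control 1028 to 1771 (1028, 1135 and 1243 without dmPGE2+APAP replicate 2, dmPGE2+APAP replicate 3 and control replicate 2). Isoform calls were 1 with no filter and 1 to 3 with 1 library left out for APAP, and 0 at a pseudocount of 1 and 1 to 2 with 1 library left out for dmPGE2+APAP, both against control. The value of Mrps36 for dmPGE2+APAP against APAP, 0.0092, became −0.0211 with no rescaling, −0.0108 with median ratio scaling, −0.152 without APAP replicate 3 and −0.109 without dmPGE2+APAP replicate 2 (−0.152 to 0.149 with 1 library left out), and that of Mrps18b, 0.0468, became −0.0423 and −0.0280 without the same libraries (−0.0423 to 0.152). The labels give the groups the same replicate numbers, but libraries of the same number did not deviate together (r from −0.117 to 0.0716). A replicate block gave 7 members for APAP and 0 for dmPGE2+APAP against control. Median ratio scaling gave 3 for dmPGE2+APAP against control, with Mrps10 added at −0.32 (limma adjusted p = 0.0436). The causes were not tested. The depth is unknown, so no counting error can be given, and 3 libraries a group limit the precision.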
